A study of Mus musculus with 12 samples.

Results

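The endothelium lines blood vessels, and 10 genes that mark this cell type were followed in mouse testis RNA. They were chosen by gene symbol as known markers, with no threshold on their values but with earlier results of these data known. All 10 were found among the 20718 genes of the expression table. Kdr and Flt1 encode receptors for vascular endothelial growth factors, Tek (TIE2) and Tie1 encode the angiopoietin receptor and its partner, and Eng encodes a co-receptor for ligands of the TGF-beta family. Cdh5 (VE-cadherin), Pecam1 and Esam encode adhesion molecules of the contacts between endothelial cells, Emcn encodes a sialomucin of capillary and venous endothelium, and Vwf encodes the clotting protein von Willebrand factor.

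In the testis, blood vessels run in the interstitium between the seminiferous tubules, next to Leydig cells and macrophages, and do not enter the tubules. The vessels bring gonadotropins to the testis and carry testosterone away. Growth factors of the VEGF family act through KDR, while FLT1 binds some of the same ligands and is also made as a soluble form that holds them back. Angiopoietin 1 activates TEK and quiets the vessel, angiopoietin 2 mostly opposes it, and VE-cadherin holds neighbouring cells together.

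RNA came from testes of male mice labelled as strain IRC (ICR in the study's methods) that had been injected with lentivirus at 4 weeks of age and kept to 9 weeks before mating and sampling. There were 4 groups of 3 libraries, 12 in all. In F0_5251KD the virus carried a mix of 3 short hairpin RNAs against the long non-coding RNA lncRNA5251, and F0_3NC received the negative control of the same vector (LV3). In F0_5251OV the virus carried lncRNA5251, and F0_5NC received the empty vector of that other backbone (LV5). All groups therefore carried a lentiviral vector, and no uninjected testis was analysed here. The virus was injected into the testes and was not aimed at endothelial cells. Nothing in the labels tells whether each library is a different animal, so p-values here cover only the spread from library to library, which may be technical. The totals lay between 15431383 and 16355720 estimated counts per library. TMM scaling factors, which correct these totals for composition, were between 0.97 and 1.078, with the highest in F0_5NC replicate 1. Any 2 libraries of a group differed by a chi-square of at least 3.73 per gene, above sampling noise. The labels name no batch, and a batch shared by the LV3 or the LV5 groups cannot be told apart from the backbone. No gene of the table has the symbol lncRNA5251, and the target was not sought under another name or by its sequence. The labels were therefore not checked against its level.

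All 10 genes passed the filter on low counts, and none had a count of 0 in any library. Levels between genes were compared as RPKM, which scales the count by transcript length and library total. Over the 12 libraries, Eng had the highest level with 2.49 ± 0.41 RPKM (SD over 12 libraries) and Vwf followed with 2.11 ± 0.27. Esam was at 1.58 ± 0.35 and Cdh5 at 1.41 ± 0.32 RPKM. Tek, Flt1, Pecam1, Kdr and Emcn lay close together between 0.88 and 1.04 RPKM, and Tie1 was the lowest with 0.58 ± 0.18. Eng was above Vwf, Vwf above Esam, Cdh5 above Tek and Emcn above Tie1 in 11 of 12 libraries. Neighbours in the middle of the order did not separate: Tek was above Flt1 in 7, Flt1 above Pecam1 in 5 and Pecam1 above Kdr in 6 of 12 libraries. The median gene tested was at 6.18 RPKM, and even Eng reached only the percentile 32.4 of tested genes, while Tie1 was at percentile 11.1.

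These levels set the precision. The estimated count per library was 227 to 328 for Vwf and 107 to 164 for Eng, but only 23 to 53 for Tie1 and 13 to 24 for Emcn. Counting error alone gives a coefficient of variation of 5.9% for Vwf and 23.4% for Emcn. The variation that edgeR estimated on top of it was between 12.1% (Vwf) and 22.6% (Tie1). All counts of the 10 genes were whole numbers in all 12 libraries. In the RefSeq gene annotation the VEGF receptor genes lie on the same chromosome, Kdr (gene ID 16542) at chr5:75932827-75979072 and Flt1 (gene ID 14254) at chr5:147561604-147726438. So do the TIE receptor genes, Tek (gene ID 21687) at chr4:94739086-94874976 and Tie1 (gene ID 21846) at chr4:118471191-118489849. The other genes are spread over the genome, Eng (gene ID 13805) at chr2:32646595-32682669, Cdh5 (gene ID 12562) at chr8:104101613-104144504, Pecam1 (gene ID 18613) at chr11:106654213-106715281, Esam (gene ID 69524) at chr9:37528089-37538319, Emcn (gene ID 59308) at chr3:137341062-137431069 and Vwf (gene ID 22371) at chr6:125552948-125686679. In GENCODE M21 (GRCm38), exons of 9 genes overlapped no other gene, while Eng shared 61 bases with Fpgs on the opposite strand. Since no strand-marking step is named, reads from those bases cannot be assigned to either gene.

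The promoters of both receptor pairs are shown, since the genes of each pair are related. RefSeq windows on GRCm38.p6 from 250 bases before to 50 after the start site were matched for 6 of the 10 genes (Kdr, Flt1, Tek, Tie1, Eng and Emcn). The Kdr and Flt1 windows lay wholly, and the Tek window mostly, inside the gene spans given above. The start sites used for these genes were thus not the outer ends of those spans. Capitals mark AGGAAG, or CTTCCT where it lies on the other strand, the core bound by many ETS factors, a family known to act at endothelial promoters.
Kdr, chr5:75978406-75978705, minus strand: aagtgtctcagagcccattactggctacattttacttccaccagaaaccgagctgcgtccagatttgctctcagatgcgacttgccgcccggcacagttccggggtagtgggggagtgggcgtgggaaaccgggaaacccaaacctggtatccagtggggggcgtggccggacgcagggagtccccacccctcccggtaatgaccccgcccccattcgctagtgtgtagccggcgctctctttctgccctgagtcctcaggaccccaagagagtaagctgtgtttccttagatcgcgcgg
Flt1, chr5:147725962-147726261, minus strand: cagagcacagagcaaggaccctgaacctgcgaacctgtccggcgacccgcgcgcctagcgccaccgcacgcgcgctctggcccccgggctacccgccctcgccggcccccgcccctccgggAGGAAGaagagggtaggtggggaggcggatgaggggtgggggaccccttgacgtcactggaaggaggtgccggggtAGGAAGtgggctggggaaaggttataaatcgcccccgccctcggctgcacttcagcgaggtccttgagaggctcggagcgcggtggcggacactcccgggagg
Tek, chr4:94739039-94739338, plus strand: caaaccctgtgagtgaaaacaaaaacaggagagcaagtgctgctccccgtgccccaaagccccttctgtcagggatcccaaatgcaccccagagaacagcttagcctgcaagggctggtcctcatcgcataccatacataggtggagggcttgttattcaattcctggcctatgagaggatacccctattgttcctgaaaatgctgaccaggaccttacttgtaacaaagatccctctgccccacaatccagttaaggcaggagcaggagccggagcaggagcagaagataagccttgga
Tie1, chr4:118489800-118490099, minus strand: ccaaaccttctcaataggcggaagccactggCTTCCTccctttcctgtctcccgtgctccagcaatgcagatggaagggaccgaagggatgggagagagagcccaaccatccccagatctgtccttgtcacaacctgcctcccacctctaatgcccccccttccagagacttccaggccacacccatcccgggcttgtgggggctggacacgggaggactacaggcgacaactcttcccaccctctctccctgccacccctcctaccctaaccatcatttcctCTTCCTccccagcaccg
AGGAAG was found in 4 of the 6 windows (Emcn, Eng, Flt1 and Tie1), each with 2 matches, and in 35.4% of all 32851 promoter windows of that length. The GATA-type core AGATAA was in the Tek window only, against 11.2% of all windows, and the SOX-type core AACAAT was in those of Emcn and Tek, against 10.7%. The TATA box letters TATAAA were in Flt1 alone, against 13.6% of all windows, and the SP-type box CCGCCC was in Flt1 and Kdr, against 35.7%. A second ETS-type core, CCGGAAG, was in 0 of the 6 windows, against 8.9% of all windows. The FOX-type core TGTTTAC was also in 0 of 6, against 3.6%. The E-box CANNTG was in 5 of 6 (Emcn, Eng, Kdr, Tek and Tie1), against 72.3%. Both strands were searched, and no matches of different motifs overlapped in these windows. GC content was 70.7% in the Flt1 window and 41.0% in that of Emcn, with a median of 52.7% over all windows. Such matches describe the letters only and say nothing on whether a factor binds there.

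Whether knockdown of lncRNA5251 altered these genes was examined in F0_5251KD vs F0_3NC. All 10 had a higher mean in F0_5251KD, with log2 fold changes of the count between 0.09 (Emcn) and 0.42 (Tek) and a median of 0.25. None passed an adjusted p of 0.05 by edgeR (0.0245% of the 16296 genes tested did), and none passed by DESeq2 or by limma. Of all genes tested, 49.1% had a log2 fold change above 0, and their median was -0.004. The members share the same libraries, are not independent of each other and were chosen with earlier results of these data known. At an unadjusted p under 0.05 there was 1 of 10, Tek, while 2.34% of all genes were higher at that level. For 3 of the 10, Pecam1, Kdr and Tek, every F0_5251KD library was above every F0_3NC library, against 5.52% of all genes. In bulk tissue, a change in the number of endothelial cells and a change in RNA per cell cannot be told apart.

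Tek, the angiopoietin receptor, was at 5.34, 5.58 and 4.92 CPM (the count scaled to library size with TMM, not to length) in F0_5251KD and at 4.12, 3.77 and 3.96 CPM in F0_3NC. The groups did not overlap, and the libraries of each lay close together. Its log2 fold change was 0.42 (SE 0.173, 95% interval 0.04 to 0.79, unadjusted p 0.0307, adjusted p 0.897). Tie1, its partner receptor, was at 3.11, 3.44 and 1.72 CPM in F0_5251KD and at 2.64, 1.58 and 2.05 CPM in F0_3NC. Here replicate 3 of F0_5251KD lay among the control libraries, and the interval of the difference was wide, from -0.26 to 1.06.

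Kdr, the main signalling receptor for VEGF, was at 5.59, 4.41 and 6.0 CPM in F0_5251KD and at 4.25, 4.38 and 3.37 CPM in F0_3NC. The lowest treated and the highest control library differed by less than the spread within either group. The log2 fold change was 0.41 (SE 0.223, interval -0.07 to 0.89, adjusted p 0.897). Flt1, the other VEGF receptor, ranged from 6.22 to 7.54 CPM in F0_5251KD and from 5.09 to 6.75 CPM in F0_3NC. Its ranges overlapped, and the log2 fold change was 0.24 (SE 0.165). Eng was at 10.10, 7.33 and 9.90 CPM against 6.89, 7.36 and 7.99 CPM, so that 2 of 3 treated libraries were above all controls, and its log2 fold change was 0.30 (SE 0.169, interval -0.07 to 0.66).

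Among the adhesion genes, Pecam1 was at 3.49, 3.37 and 3.32 CPM in F0_5251KD and at 2.96, 2.43 and 3.10 CPM in F0_3NC. The groups did not overlap, but the counts behind them were only 52 to 55 and 40 to 47, and the interval of the log2 fold change of 0.26 ran from -0.22 to 0.75. Cdh5 had 0.17 (interval -0.20 to 0.54) and Esam 0.10 (interval -0.42 to 0.61), and both groups overlapped in each. Vwf was between 18.48 and 20.84 CPM in F0_5251KD and between 14.72 and 19.36 CPM in F0_3NC. A control library, replicate 3, reached the treated range, and the log2 fold change was 0.24 (SE 0.142, interval -0.07 to 0.54). Emcn, the gene with the fewest counts, had 0.09 (interval -0.50 to 0.69), and no difference was detectable at this depth.

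**Figure D1:**
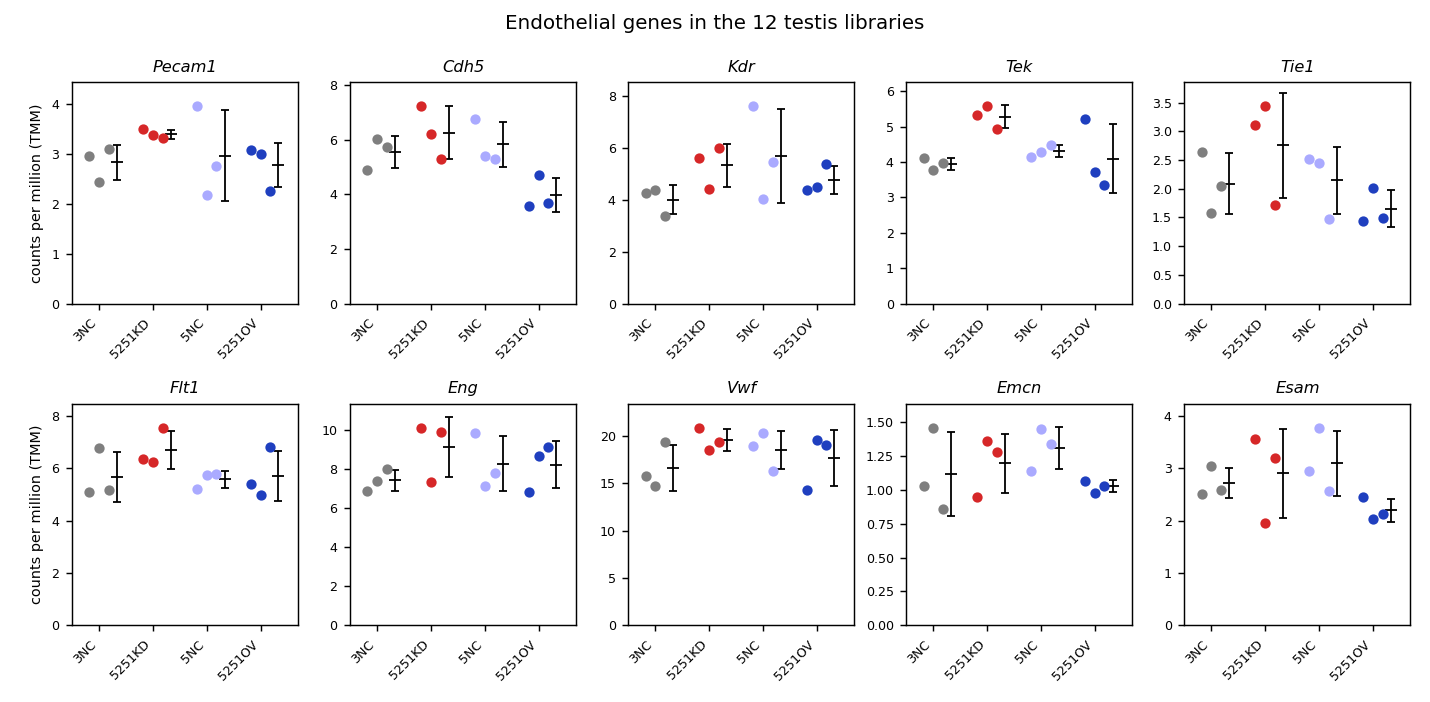
CPM with TMM scaling (vertical axes, each from 0) of the 10 endothelial genes in the 4 groups (horizontal axes, without the prefix F0_). Points are the 3 libraries of a group, the black mark is their mean and the bar is the SD. Tek, Kdr and Pecam1 lie higher in all 3 knockdown libraries than in all 3 libraries of 3NC, Cdh5, Emcn and Esam lie lower in all 3 overexpression libraries than in all 3 of 5NC, and the other genes overlap in both.

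Overexpression was examined in F0_5251OV vs F0_5NC. Here 9 of the 10 genes had a lower mean in F0_5251OV, with a median log2 fold change of -0.18, while 50.5% of all genes had a value below 0. No member passed an adjusted p of 0.05 by edgeR (0% of 16296 genes did), by DESeq2 or by limma. Without F0_5NC replicate 1 the median was -0.08, and 3 genes were then higher. At an unadjusted p under 0.05, Cdh5 was the 1 lower gene, against 4.8% of all genes. For 3 of 10, Cdh5, Emcn and Esam, every F0_5251OV library was below every F0_5NC library, against 6.57% of all genes.

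Cdh5, which encodes VE-cadherin, was at 3.57, 4.70 and 3.68 CPM in F0_5251OV and at 6.77, 5.42 and 5.31 CPM in F0_5NC. The gap between the groups was smaller than the spread within them, and its log2 fold change was -0.55 (SE 0.178, interval -0.93 to -0.17, unadjusted p 0.00822, adjusted p 0.536). Over 14 alternative settings its adjusted p lay between 0.348 and 0.987. Esam was at 2.44, 2.02 and 2.13 CPM against 2.94, 3.77 and 2.56 CPM. Its log2 fold change was -0.48 (SE 0.243, interval -1.01 to 0.04, adjusted p 0.58). Emcn was at 1.07, 0.98 and 1.03 CPM against 1.14, 1.45 and 1.34 CPM, which rests on 15 to 17 counts against 19 to 22, and its interval ran from -0.95 to 0.25. The third adhesion gene, Pecam1, was nearly level between the groups, with -0.10 (interval -0.59 to 0.40), and spanned 2.18 to 3.96 CPM within F0_5NC.

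Of the receptors, Tie1 had a log2 fold change of -0.38 (interval -1.06 to 0.31) and Kdr of -0.26 (interval -0.74 to 0.21). Kdr varied most in F0_5NC, where the libraries were at 7.61, 4.03 and 5.44 CPM, and its 3 F0_5251OV libraries, at 4.39, 4.50 and 5.36 CPM, all lay inside that range. Tek had -0.07, Flt1 0.04, Eng -0.01 and Vwf -0.07, each with an interval that included 0 and had no bound farther from 0 than -0.44. Replicate 1 of F0_5251OV was apart from the other libraries of its group for Tek (5.20 against 3.72 and 3.36 CPM) and for Vwf (14.23 against 19.58 and 19.06 CPM), in opposite directions. Epididymal marker genes, which mark carry-over of the neighbouring organ, summed to between 5.36 and 86.5 CPM in F0_5251OV libraries and between 19 and 124 CPM in F0_5NC libraries, and their part in these values was not tested.

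The 2 control groups were compared to see how far the genes differ without any lncRNA5251 construct. In F0_3NC vs F0_5NC, 9 of 10 genes were lower in F0_3NC, with a median log2 fold change of -0.14, where 49.9% of all genes had a value below 0. Without F0_5NC replicate 1 it was -0.08, and 3 genes were higher. None passed the threshold by edgeR (0.331% of 16296 genes did), DESeq2 or limma. Kdr had the largest difference, -0.51 (SE 0.222, interval -0.99 to -0.03, unadjusted p 0.0384, adjusted p 0.404), and was the only member with an unadjusted p under 0.05, which 5.47% of all genes had as lower genes. Tek was the only gene without overlap, as its F0_3NC libraries reached 4.12 CPM and those of F0_5NC began at 4.14 CPM, against 7.41% of all genes, and differed by just -0.12 (interval -0.50 to 0.25). Flt1 was the exception in direction, with 0.03. F0_3NC and F0_5NC each enter 2 of these comparisons, so the values are not independent.

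Whether the genes moved differently under knockdown and overexpression was tested with the difference between both effects. It was above 0 for all 10 genes (50.4% of all genes had a value above 0), from 0.21 (Flt1) to 0.78 (Tie1) on the log2 scale with a median of 0.46. No gene passed an adjusted p of 0.05 by edgeR (0% of 16296 genes did), by DESeq2 or by limma, whereas 2 of 10 had an unadjusted p under 0.05 with 5.23% of all genes higher at that level. These were Cdh5, at 0.72 (SE 0.248, interval 0.19 to 1.26, unadjusted p 0.0118, adjusted p 0.403), and Kdr, at 0.68 (SE 0.313, unadjusted p 0.0491, adjusted p 0.441). For Cdh5 most of the difference lay in the overexpression arm (-0.55 against 0.17), and for Tek it lay in the knockdown arm (0.42 against -0.07). The direction was not particular to the 10 genes. Among marker lists described below, it was above 0 in 8 of 8 Sertoli cell (median 0.37), 6 of 6 pericyte (0.27) and 6 of 7 Leydig cell genes (0.60). The same held for 5 of 6 smooth muscle (0.58), 7 of 9 macrophage (0.39) and 17 of 23 other endothelial genes (0.24). Epididymal genes were below 0 in 4 of 4 (-0.30). Immediate early (8 of 8, 1.48), blood (4 of 4, 1.48) and platelet genes (3 of 3, 0.82) were also above 0. Without F0_5NC replicate 1, the difference was above 0 in 6 of 8 Sertoli cell (0.16) and 3 of 6 pericyte genes (0.11). The counts were then 5 of 7 Leydig cell (0.39), 6 of 6 smooth muscle (0.51) and 7 of 9 macrophage genes (0.29). Other endothelial genes were at 17 of 23 (0.14), epididymal genes at 2 of 4 (-0.08) and the 10 members at 10 of 10 (0.47).

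**Figure D2:**
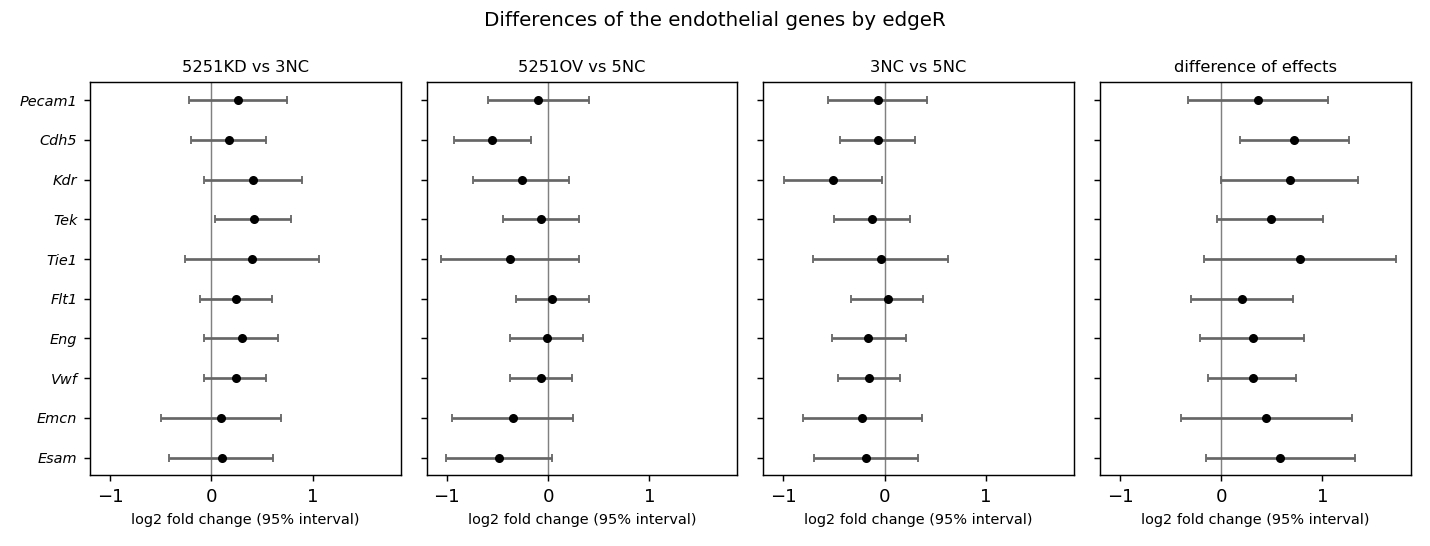
Log2 fold changes of the 10 endothelial genes by edgeR (points) with 95% intervals (bars) in the 3 comparisons and in the difference of the knockdown and overexpression effects. All 10 points lie above 0 in the first and the last panel, and the intervals that leave out 0 belong to Tek in the first, Cdh5 in the second, Kdr in the third and Cdh5 and Kdr in the last, where the lower bound for Kdr is 0.00.

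The sum over the 10 genes gives a less noisy view of each library. In F0_5251KD it was 66.6, 58.4 and 62.5 CPM and in F0_3NC 50.2, 51.5 and 54.2 CPM. In F0_5NC it was 63.0, 56.8 and 53.2 CPM and in F0_5251OV 47.6, 54.2 and 54.3 CPM. The knockdown libraries were all above their controls, and the overexpression libraries overlapped with theirs. The group means were 62.5 ± 4.1 for F0_5251KD, 57.7 ± 4.9 for F0_5NC, 52.0 ± 2.0 for F0_3NC and 52.0 ± 3.8 CPM for F0_5251OV (SD, n = 3). F0_5251KD and F0_5NC overlapped, so that the knockdown group stood apart from F0_3NC but not from the other control. The 760 to 1051 summed counts per library carry a counting error of 3.08% to 3.63%, and the libraries within a group varied by 3.9% (F0_3NC) to 8.6% (F0_5NC). Vwf weighed most in the sum. Without it F0_5251KD was at 45.8, 39.9 and 43.2 CPM and F0_3NC at 34.4, 36.8 and 34.8 CPM, still without overlap. These sums hold the same values as the single genes. How often sums over other genes separate in this way was not determined.

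The members were also compared within the groups. In F0_5NC replicate 1, 5 of 10 genes had their highest and 3 their lowest value of that group, and in F0_5251OV replicate 1 these numbers were 4 and 5. Across the 12 libraries the log2 CPM of the 45 pairs of members had a median Pearson's r of 0.19, from -0.35 (Pecam1 and Emcn) to 0.72 (Kdr and Eng), and 35 pairs were positive. For deviations from the group means, the median was -0.02 and 22 of 45 pairs were positive. These values are a description over 12 libraries that share their scaling, and at counts this low a weak r is no finding.

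A second list of 25 endothelial genes showed whether the pattern extends beyond the members. It held, among others, the tight junction gene Cldn5, the transcription factors Sox17, Sox18 and Erg, and Nos3, the nitric oxide synthase of endothelium. Of its 23 genes tested, 14 were higher and 9 lower in F0_5251KD vs F0_3NC with a median of 0.06, and none was called. Its summed level overlapped between the groups, with 76.1 to 84.7 CPM in F0_5251KD and 77 to 84.3 CPM in F0_3NC. The smallest unadjusted p belonged to Plvap, which encodes a protein of the diaphragms of fenestrated endothelium, with a log2 fold change of 1.14 (SE 0.357, unadjusted p 0.00678, adjusted p 0.897). Adgrl4 (-0.39, SE 0.239) and Sox17 (-0.16, SE 0.105) came next and had the opposite sign. For F0_5251OV vs F0_5NC 9 were higher and 14 lower with a median of -0.06 and none called. Robo4, a guidance receptor of endothelium, had -1.21 (SE 0.387, unadjusted p 0.00765, adjusted p 0.536), Cd34 had -0.44 (SE 0.177) and Cldn5 -0.39 (SE 0.178). Robo4 varied widely in F0_5NC, at 3.57 ± 2.32 CPM (SD, n = 3). Between the controls, 10 were higher and 13 lower in F0_3NC with a median of -0.04. Cldn5 had a mean of 4.58 ± 0.92 CPM in F0_3NC, against 7.95 ± 0.48 CPM for F0_5NC, and differed by -0.80 on the log2 scale (SE 0.181, unadjusted p 0.000675, adjusted p 0.117).

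The ligands and co-receptors of these pathways formed a list of 18 genes, of which 17 were tested. In knockdown 13 were higher and 4 lower (median 0.14), in overexpression 7 were higher and 10 lower (median -0.15), and between the controls 10 were higher and 7 lower (median 0.07). None of them was called in any of the comparisons. Among the ligands of KDR and FLT1, Vegfb was at 3.58 ± 0.74 RPKM in F0_3NC and 4.17 ± 0.14 in F0_5251KD, Pgf at 2.75 ± 0.04 and 2.34 ± 0.42, and Vegfa at 1.94 ± 0.26 and 2.17 ± 0.60 RPKM (SD, n = 3). Each was above the level of both receptors per length. Their log2 fold changes of the count were 0.23 (SE 0.182) for Vegfb, -0.12 (SE 0.188) for Pgf and 0.12 (SE 0.2) for Vegfa. In F0_5251OV vs F0_5NC they were 0.09 (SE 0.183), -0.39 (SE 0.191) and -0.15 (SE 0.207).

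Of the ligands of TEK, Angpt2 was at 0.97 ± 0.21 RPKM in F0_5251KD and 0.88 ± 0.25 in F0_3NC, and Angpt1 was far lower, at 0.09 ± 0.02 and 0.20 ± 0.11 RPKM. Angpt1 had a log2 fold change of -0.98 with an interval from -2.41 to 0.45, so that its level was not resolved. Ptprb (VE-PTP), the phosphatase that restrains TEK, had 0.14 (SE 0.195) in knockdown and 0.17 (SE 0.198) in overexpression, and the VEGF co-receptor Nrp1 had 0.02 (SE 0.232) and -0.32 (SE 0.23). The gene of this list with the smallest unadjusted p was Flt4, the receptor for VEGF-C on lymphatic endothelium. F0_5251OV had 7.53 ± 0.79 CPM and F0_5NC 12.09 ± 0.63 CPM (SD, n = 3). The log2 fold change was -0.68 (SE 0.139, unadjusted p 0.00027, adjusted p 0.339), and its difference of effects was 0.80 (SE 0.195, unadjusted p 0.00112, adjusted p 0.352). The catenins and other partners of VE-cadherin, which most testis cells express, had medians of -0.02 in knockdown and -0.11 in overexpression over 7 genes, with none called.

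Markers of other cells in or near the testis were read in the same libraries. None of the markers in these lists was at 0 in all libraries. In F0_5251KD vs F0_3NC, smooth muscle genes had a log2 fold change above 0 in 6 of 6, at a summed level of 336 to 351 against 306 to 344 CPM, pericyte genes in 5 of 6, at 21.5 to 28.8 against 21.2 to 23.5 CPM, and macrophage genes in 7 of 9, at 89.6 to 111 against 83.6 to 118 CPM. Leydig cell genes were above 0 in 5 of 7, at 1963 to 3025 against 1983 to 2264 CPM, Sertoli cell genes in 5 of 8, with a median of 0.10, lymphatic genes in 3 of 6, with a median of -0.03, and adipocyte genes in 2 of 4. Epididymal genes were below 0 in 4 of 4, at 2.1 to 4.99 against 5.41 to 11.4 CPM. No gene of these lists was called. Blood cell genes (hemoglobins and Alas2) were above 0 in 3 of 4 tested and, like the endothelial sum, did not overlap, at 68.9 to 107 CPM in F0_5251KD against 53.9 to 62.5 CPM in F0_3NC. Platelet genes, which matter since platelets carry Vwf and Pecam1 transcripts, were at 8.62 to 9.72 against 5.23 to 8.52 CPM. No blood or platelet gene was called. Immediate early genes, which respond within minutes to stimulation, were above 0 in 8 of 8, at 232 to 299 against 120 to 132 CPM, and 4 were called (Btg2, Egr1, Fos and Zfp36). The part of these genes in the endothelial values was not tested.

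In F0_5251OV vs F0_5NC, the medians were below 0 in all of these lists, and no gene of them was called. They were -0.22 for Leydig cells (7 of 7 genes below 0), -0.31 for Sertoli cells (8 of 8), -0.31 for macrophages (8 of 9), -0.26 for pericytes (5 of 6), -1.11 for blood cells (4 of 4), -0.44 for platelets (3 of 3), -0.24 for lymphatic genes (5 of 6), -0.59 for adipocytes (3 of 4), -0.61 for the epididymis (4 of 4) and -0.33 for immediate early genes (7 of 8). Smooth muscle genes had a median of -0.42 (5 of 6), but their summed level was not lower, with 342 ± 21.9 CPM for the overexpression group against 336 ± 29.4 CPM for its control (SD, n = 3). F0_5NC replicate 1 stood apart from the other two libraries of its group in several lists. Sertoli cell genes summed to 1245 CPM there against 852 and 836 CPM, Leydig cell genes to 3025 against 1784 and 2151 CPM, and macrophage genes to 125 against 98.3 and 90.6 CPM, while epididymal genes summed to 19 against 121 and 124 CPM. Without this library the medians were -0.10 for Sertoli cells (5 of 8 genes below 0) and -0.18 for Leydig cells (5 of 7). For macrophages the median was -0.10 (6 of 9), for pericytes -0.15 (3 of 6) and for platelets -0.16. Lymphatic genes were at -0.17 (4 of 6) and immediate early genes at -0.11 (6 of 8). Not all lists moved towards 0. Smooth muscle genes stayed at -0.39 (5 of 6), adipocyte genes were at -0.64 (3 of 4) and epididymal genes at -1.07. Blood cell genes were below 0 in 3 of 4, with a median lower than that of adipocytes. The endothelial median moved from -0.18 to -0.08. The medians of the other endothelial genes, of the ligands and co-receptors and of the partners of VE-cadherin were then -0.03, -0.06 and -0.03. The part of these cells in the endothelial median was not tested.

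Between the controls, F0_3NC vs F0_5NC, the lists that differed most were the epididymal and the immediate early genes. Epididymal genes were below 0 in 4 of 4 with a median of -4.24, at 5.41 to 11.4 against 19 to 124 CPM, and 1 was called (Spink8). Immediate early genes were above 0 in 8 of 8 with a median of 1.79, at 120 to 132 against 28.7 to 39.9 CPM, and 5 were called (Btg2, Egr1, Fos, Junb and Zfp36). Of the 4 adipocyte genes tested, Plin1 was called, at -1.46, and the median was -0.35. The called genes of these lists were named after their values were seen. The medians of the other lists were -0.20 for pericytes, -0.28 for macrophages, -0.26 for Sertoli cells, -0.01 for Leydig cells, -0.10 for smooth muscle, 0.31 for blood cells, -0.10 for platelets and 0.11 for lymphatic genes, with no gene called. Without F0_5NC replicate 1 they were 0.08 for pericytes, -0.04 for macrophages, -0.05 for Sertoli cells and -0.01 for platelets. For Leydig cells the median was then 0.00, for smooth muscle -0.11, for blood cells 0.45 and for lymphatic genes 0.08. The part of these lists in the endothelial values was not tested.

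**Figure D3:**
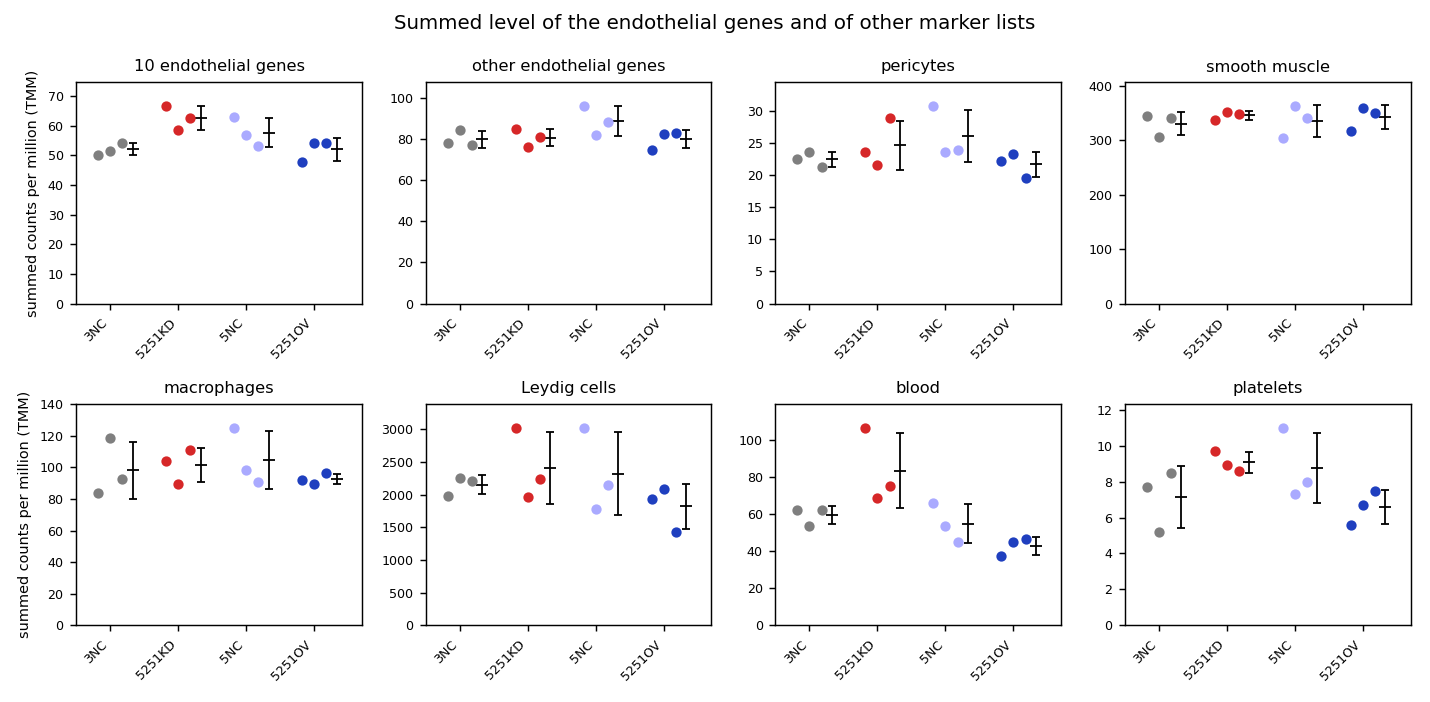
Summed CPM with TMM scaling (vertical axes, each from 0) of the 10 endothelial genes, of 25 other endothelial genes and of marker lists for cells in or near vessels, in the 4 groups (without the prefix F0_). Points are libraries, the black mark is the mean and the bar is the SD of 3 libraries. The 10 genes and the blood and platelet lists lie higher in all knockdown libraries than in all 3NC libraries, whereas the other endothelial genes overlap.

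The genes most like the members were sought among 15157 tested genes whose mean reached 1 CPM, by Pearson's r over the 12 libraries with the mean of the members' standardised log2 CPM. The 10 highest were Dlc1 (r = 0.93), Stab1 (0.89), Hpcal1 (0.89), Tm9sf1 (0.89), Tmem184b (0.88), Def6 (0.88), Hivep3 (0.88), Atp2a3 (0.87), Id3 (0.87) and Zbtb7a (0.86). Stab1 encodes a scavenger receptor of sinusoidal endothelium and macrophages, and Id3 encodes an inhibitor of helix-loop-helix transcription factors. None of the 10 was in the lists of endothelial or other markers. With deviations from the group means in place of the levels, their r was between 0.60 and 0.84. Of the 25 other endothelial genes, 20 could be ranked, with a median r of 0.30 against -0.01 over all ranked genes, and 16 of them were above that median. As the highest of 15157 values over 12 points, these r describe the libraries only.

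Another quantity of Flt1 and Tek differed between libraries. Count, RPKM and library total together imply the transcript length that was used for each library. For 8 of the 10 genes this length was stable, with a coefficient of variation between 0.3% and 1.5% over the 12 libraries. For Tek it varied by 3.7% and for Flt1 by 5.7%, more than rounding of the RPKM allows (at most 0.63% and 0.62%). Of 12613 genes with a mean count of at least 50 and an RPKM of at least 0.5 in each library, 96.5% varied less than Flt1 and 92.0% less than Tek. The implied length of Flt1 was 6172, 6132 and 6139 bases in F0_5251KD and 6109, 6055 and 6149 bases in F0_5251OV. In F0_5NC it was 6105, 5576 and 5059 bases and in F0_3NC 5854, 5751 and 6157 bases. Shorter lengths were thus found in 2 libraries of each control and in no treated library. F0_3NC replicate 3 and F0_5NC replicate 1 lay in the treated range. This split was picked out after the values were seen, and the share of all genes with such a split was not determined. For Tek the F0_5NC libraries were at 4368, 4524 and 4486 bases and the F0_3NC libraries at 4162, 4212 and 4176 bases, without overlap. The share of all genes with such a gap was not determined. The treated libraries overlapped with both controls, at 4187, 4369 and 4006 bases in F0_5251KD and at 4151, 4379 and 4124 bases in F0_5251OV. The length enters RPKM but not the count, and the sign of the small Flt1 difference in F0_5251OV vs F0_5NC turned with the unit, from 0.04 for counts to -0.14 on log2(RPKM + 0.1).

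**Figure D4:**
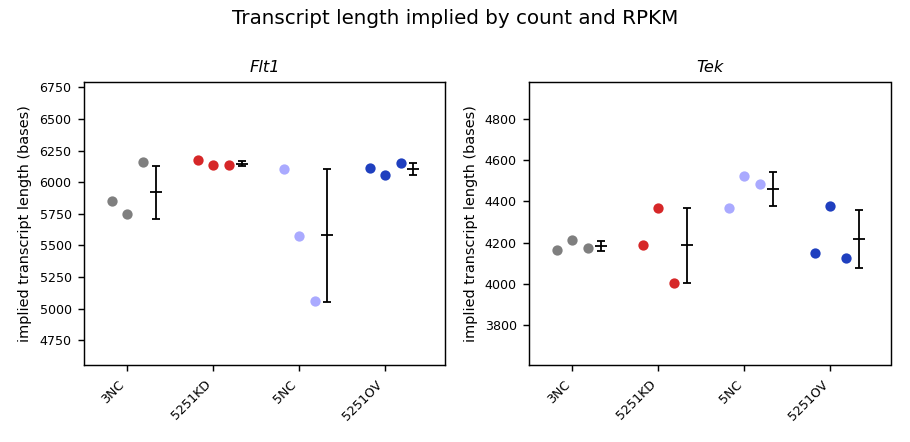
Transcript length in bases implied by the count, the RPKM and the library total (vertical axes, which do not start at 0) for Flt1 and Tek in the 4 groups (without the prefix F0_). Points are libraries, the black mark is the mean and the bar is the SD. The Flt1 length of F0_5NC ranges from 5059 to 6105 bases, and the 6 libraries of the treated groups stay between 6055 and 6172 bases. F0_5NC replicate 1 and F0_3NC replicate 3 lie in that range too.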

How the data were processed

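RNA was measured in 12 testis libraries of 4 groups, taken from the titles of the samples. Per the methods, mRNA was enriched with oligo(dT) beads, cDNA was primed with random hexamers without a step that marks strand, and reads were mapped to reference genes with SOAPaligner. The labels name the build mm10. The authors deposited an estimated count and an RPKM value for each gene and library. Values that were not whole (tolerance 1e-06) made up 12.0% of the estimated counts, and all counts were rounded. RPKM is the name in the methods (FPKM is the same scale for fragments). The 18 columns of values that match no sample were not used, nor were the group means.

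The two-sided quasi-likelihood test of edgeR 4.0.16 (R 4.3.3) was run with TMM scaling and filterByExpr on all 12 libraries, with a mean for each of the 4 groups. Benjamini-Hochberg adjustment was made over the 16296 genes tested, and an adjusted p under 0.05 was called. Each SE was derived from the F statistic, and intervals cover 95%. The tests were run on simulated counts first. Gene lists and members were chosen with earlier results of these data known. Singly named were the 10 members, 7 fixed ligands and partners, the 3 smallest p-values of 2 lists per comparison and the 10 genes of highest likeness. The motifs and the implied lengths were chosen after the data were seen. Alternatives were DESeq2 1.42.0, limma 3.58.1 on log2(RPKM + 1) and log2(RPKM + 0.1), upper-quartile scaling, other filters on low counts, fits restricted to the groups compared, a block for the replicate number, and leaving out each library. The 4 comparisons share libraries.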

Additional observations from a re-analysis of the deposited data

How the results depend on the processing

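No member was called in any of the comparisons under any alternative, the fit with the replicate number as a block included (0 members called). Samples with the same number did not deviate together: the correlations of their deviations from the group means lay between -0.17 and 0.07 over the 9 pairs, so the numbers do not pair the libraries, and the block took the genes called among all tested in F0_5251KD vs F0_3NC from 4 to 2. DESeq2 called more of all genes, 20 against 4 in F0_5251KD vs F0_3NC, 29 against 0 in F0_5251OV vs F0_5NC, 131 against 54 in F0_3NC vs F0_5NC and 34 against 0 in the difference of effects. For F0_5251OV vs F0_5NC the count was also 3 without a filter and 3 with only the compared groups, and limma on log2(RPKM + 1) called 2 in F0_5251KD vs F0_3NC and 1 in the difference of effects, and on log2(RPKM + 0.1) called 0 in F0_5251KD vs F0_3NC. Leaving out a library gave 0 to 4 calls in F0_5251KD vs F0_3NC and 30 to 54 in F0_3NC vs F0_5NC.

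The median over the members was smaller on log2(RPKM + 1), where the pseudocount is as large as most member levels: 0.16 in F0_5251KD vs F0_3NC and 0.26 in the difference of effects. Without one library it was 0.22 to 0.32 in F0_5251KD vs F0_3NC, -0.27 to -0.08 in F0_5251OV vs F0_5NC (-0.08 without F0_5NC replicate 1, with 3 genes then higher), -0.20 to -0.08 in F0_3NC vs F0_5NC (-0.08 without F0_5NC replicate 1) and 0.42 to 0.55 in the difference of effects, where all 10 genes stayed above 0 each time. In F0_5251KD vs F0_3NC, 9 or 10 genes stayed above 0.

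Among the values of single members under the alternatives, 584 kept and 26 turned their sign, and none changed its side of the threshold. Flt1 was at -0.08 and -0.14 on log2(RPKM + 1) and log2(RPKM + 0.1) in F0_5251OV vs F0_5NC and at -0.05 and -0.10 in F0_3NC vs F0_5NC. The others came from leaving out a library, with ranges in F0_5251KD vs F0_3NC of -0.06 to 0.34 for Emcn and -0.08 to 0.31 for Esam, in F0_5251OV vs F0_5NC of -0.27 to 0.17 for Pecam1, -0.46 to 0.00 for Kdr, -0.28 to 0.05 for Tek, -0.11 to 0.13 for Flt1, -0.11 to 0.13 for Eng and -0.15 to 0.06 for Vwf, and in F0_3NC vs F0_5NC of -0.25 to 0.19 for Pecam1, -0.13 to 0.05 for Cdh5, -0.24 to 0.13 for Tie1 and -0.12 to 0.10 for Flt1. The cause was not tested. Depth limits Emcn and Tie1 most.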
